A study of Mus musculus with 275 samples.

Results

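Probes of 8 genes, the carbonyl reductases Cbr1, Cbr3 and Cbr4 and the glutathione transferases Gstm1, Gstm5, Gsta4, Gstp1 and Mgst1, were examined in the striatum of mice bred for the response to haloperidol. They were chosen by the known action of their enzymes on haloperidol and on reactive products, with the level, the High minus Low difference and the covariation of these arrays already in view. Of the 25697 probes on the arrays, 12 belonged to 7 of the 8 genes. Cbr4 had no probe in the annotation used and was not analysed here. Cbr1, Gstm5 and Gsta4 had 1 probe each, Cbr3, Gstm1 and Mgst1 had 2 and Gstp1 had 3, and probes of a gene are numbered here in the order of their identifiers.

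The arrays came from 3 selections, with 1 array per animal. In each, selective breeding over 3 generations gave a High line, responsive to the catalepsy (a failure to leave an imposed posture) that haloperidol causes, and a Low line, which was not. The F2 selection started from an intercross of C57BL/6J and DBA/2J and gave 41 High and 42 Low animals. The HS4 selection started from a cross of C57BL/6J, DBA/2J, BALB/cJ and LP/J, and the HS-CC selection from the founder strains of the Collaborative Cross, and each gave 48 High and 48 Low animals. The age of the animals, and whether those on the arrays had themselves received haloperidol, were not given in the sources used here. Each selection had 1 High line and 1 Low line, so that selection and chance drift between lines cannot be told apart, and the errors below measure the spread between animals. The HS4 labels give a sex, and it matched the sex-linked transcripts of the array (Xist and a Y-linked gene) on 40 of 96 HS4 arrays. All arrays were kept and split at the widest gap in Xist minus the Y-linked gene. That gap was 0.704 log2 in HS4, against 1.233 in F2 and 1.226 in HS-CC. Whether the labels or the split account for the mismatch was not tested. The HS4 results below thus rest on labels that this check did not bear out for sex.

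Carbonyl reductases are short-chain dehydrogenases that use NADPH to reduce ketones, aldehydes and quinones. Human CBR1 reduces the ketone of haloperidol to an alcohol, reduced haloperidol. Glutathione transferases join glutathione to electrophiles, among them quinones and products of lipid peroxidation, and in brain much of their expression lies in glia. Several genes of both families are targets of Nrf2, a transcription factor that answers electrophile stress through the electrophile response element.

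All 12 probes were expressed in all 3 selections, which means above the 95th percentile of 1341 probes of chemosensory receptors (smell, pheromone and taste) on the same array on at least 25 percent of the arrays. Gstm1 probe 2 lay nearest to that background and exceeded it on 45.8% of F2 arrays, 85.4% of HS4 arrays and 52.1% of HS-CC arrays. Mgst1 probe 1 exceeded it on 95.2%, 88.5% and 71.9% of the arrays of F2, HS4 and HS-CC. The other 10 probes exceeded it on at least 92.7% of the arrays of every selection. Some arrays stood apart from the rest of their selection, by a mean correlation more than 2.5 SD below the mean. There were 1 High and 2 Low such arrays in F2, 3 High and 1 Low in HS4, and 1 High and 0 Low in HS-CC. When the rule was repeated until no array met it, 8 High and 4 Low arrays of F2, 9 High and 12 Low of HS4 and 6 High and 3 Low of HS-CC were left out. The results below are given with all arrays for High minus Low, and without the outlying arrays for covariation, and values after repeated removal are named as such.

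The probe sequences of Cbr3 and Gstm5 are shown because these were the genes whose High minus Low difference passed the threshold in HS-CC. They were decoded from the probe identifiers that the study lists, in which each character after the first stands for 3 bases. Both Cbr3 probes were decoded, and which sequence belongs to which probe number was not settled. Only 1 of them is shown, since the other may hold untranslated sequence, which is not printed here. Cbr3 lies on mouse chromosome 16 and Gstm5 on chromosome 3, and no positions of the probes are given because no genome was used.
Cbr3 probe: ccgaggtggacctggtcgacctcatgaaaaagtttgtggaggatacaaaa
Gstm5 probe: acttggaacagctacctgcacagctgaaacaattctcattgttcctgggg

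Promoter windows of Gstm1, Gstm5 and Mgst1 are shown because pairs of these 3 genes varied together across animals, and that of Cbr3 because it followed the spiny neuron markers. Each is the 250 bases before the RefSeq transcription start (GRCm38.p6), read 5′ to 3′ toward the gene, with motif matches in capitals. The motifs searched on both strands were TATAAA (the TATA box), GGGCGG (the GC box) and TGACNNNGC (the core of the electrophile response element). Gstm1 and Mgst1 have 2 annotated starts each, and the window with a match is shown.
Gstm1 at chr3:108017819-108018068 (minus strand): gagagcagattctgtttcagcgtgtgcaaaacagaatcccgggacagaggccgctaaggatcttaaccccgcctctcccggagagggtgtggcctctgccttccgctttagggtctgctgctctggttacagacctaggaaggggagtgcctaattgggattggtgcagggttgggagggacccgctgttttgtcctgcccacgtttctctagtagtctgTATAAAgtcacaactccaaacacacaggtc
Gstm5 at chr3:107895604-107895853 (plus strand): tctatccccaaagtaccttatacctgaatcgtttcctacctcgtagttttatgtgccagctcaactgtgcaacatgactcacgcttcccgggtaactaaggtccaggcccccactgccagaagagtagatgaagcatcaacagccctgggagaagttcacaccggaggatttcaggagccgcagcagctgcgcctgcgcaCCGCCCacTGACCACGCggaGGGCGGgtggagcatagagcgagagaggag
Mgst1 at chr6:138140277-138140526 (plus strand): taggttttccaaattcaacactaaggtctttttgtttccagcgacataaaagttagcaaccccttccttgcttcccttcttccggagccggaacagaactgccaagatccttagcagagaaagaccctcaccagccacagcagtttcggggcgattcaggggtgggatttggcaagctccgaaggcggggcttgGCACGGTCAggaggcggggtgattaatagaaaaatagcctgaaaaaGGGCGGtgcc
Cbr3 at chr16:93682969-93683218 (plus strand): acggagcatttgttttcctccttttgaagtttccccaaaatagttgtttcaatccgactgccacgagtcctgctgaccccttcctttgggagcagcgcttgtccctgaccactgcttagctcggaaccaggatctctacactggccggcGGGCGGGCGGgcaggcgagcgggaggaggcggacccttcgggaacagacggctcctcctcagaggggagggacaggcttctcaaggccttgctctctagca
Of 32851 windows of this length, 12.4% held TATAAA, 32.7% held GGGCGG and 10.2% held TGACNNNGC. Gstm5 held TGACNNNGC 33 bases before its start, with a GC box on either side of it, and Mgst1 held it on the minus strand 47 bases before its first start. Cbr3 held overlapping GC boxes, Gstp1 held 1 GC box, and Gstm1 held TATAAA 24 bases before its second start. The windows of Cbr1 and Cbr4 held none of the 3 motifs. A match of letters is a description of the sequence and not a measured site, and Gsta4 had no window in the table used.

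The first question was how the carbonyl reductases stood in High and Low animals. Cbr3 was lower in HS-CC High than in HS-CC Low animals at both of its probes, while Cbr1, the adjacent gene, overlapped closely between the lines. Levels are log2 intensities as deposited, and no level is set against that of another probe or selection. In bulk tissue, fewer cells of a type and less RNA per cell cannot be told apart. At Cbr3 probe 2, HS-CC High animals had a lowest value of 9.47, a median of 11.44 and a highest value of 12.04, against 10.63, 11.69 and 12.28 in HS-CC Low animals. At Cbr3 probe 1 the HS-CC values were 9.1, 10.38 and 10.94 in High and 9.93, 10.58 and 11.07 in Low. The lines thus overlapped over most of their range, with the High median below the Low median at both probes. The High minus Low difference was -0.26 (SE 0.07, 95% interval -0.40 to -0.11) at probe 2 and -0.18 (SE 0.05, 95% interval -0.29 to -0.08) at probe 1, which are folds of 0.84 and 0.88. Without the arrays removed repeatedly, the differences were -0.22 (SE 0.06) and -0.16 (SE 0.04). The lowest HS-CC High array, at 9.47, was among those removed.

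In the other selections both Cbr3 probes again had a difference below 0, but with intervals that included 0. In F2, Cbr3 probe 2 had a lowest value of 10.92, a median of 11.51 and a highest value of 12.18 in High and 10.97, 11.65 and 12.19 in Low, a difference of -0.07 (SE 0.06). Probe 1 differed by -0.04 (SE 0.04) in F2. In HS4, probe 2 had 10.41, 12.59 and 13.15 in High and 11.10, 12.70 and 13.37 in Low, a difference of -0.12 (SE 0.10), and probe 1 differed by -0.06 (SE 0.13). After repeated removal the differences were -0.09 (SE 0.06) at probe 2 and -0.08 (SE 0.04) at probe 1 in F2, and -0.09 (SE 0.08) at probe 2 and -0.14 (SE 0.07) at probe 1 in HS4. The Cbr3 differences of the 3 selections were not tested against each other.

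Cbr1, the main cytosolic carbonyl reductase, differed by 0.02 (SE 0.04) in F2, -0.07 (SE 0.08) in HS4 and 0.04 (SE 0.05) in HS-CC. In HS-CC it had a lowest value of 9.68, a median of 11.09 and a highest value of 11.44 in High and 10.54, 10.94 and 11.48 in Low. After repeated removal of outlying arrays its difference was -0.02 (SE 0.04) for F2, -0.09 (SE 0.03) for HS4 and 0.07 (SE 0.05) for HS-CC. Cbr1 and Cbr3, whose genes are next to each other, therefore had HS-CC differences of opposite sign, which were not tested against each other.

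**Figure D1:**
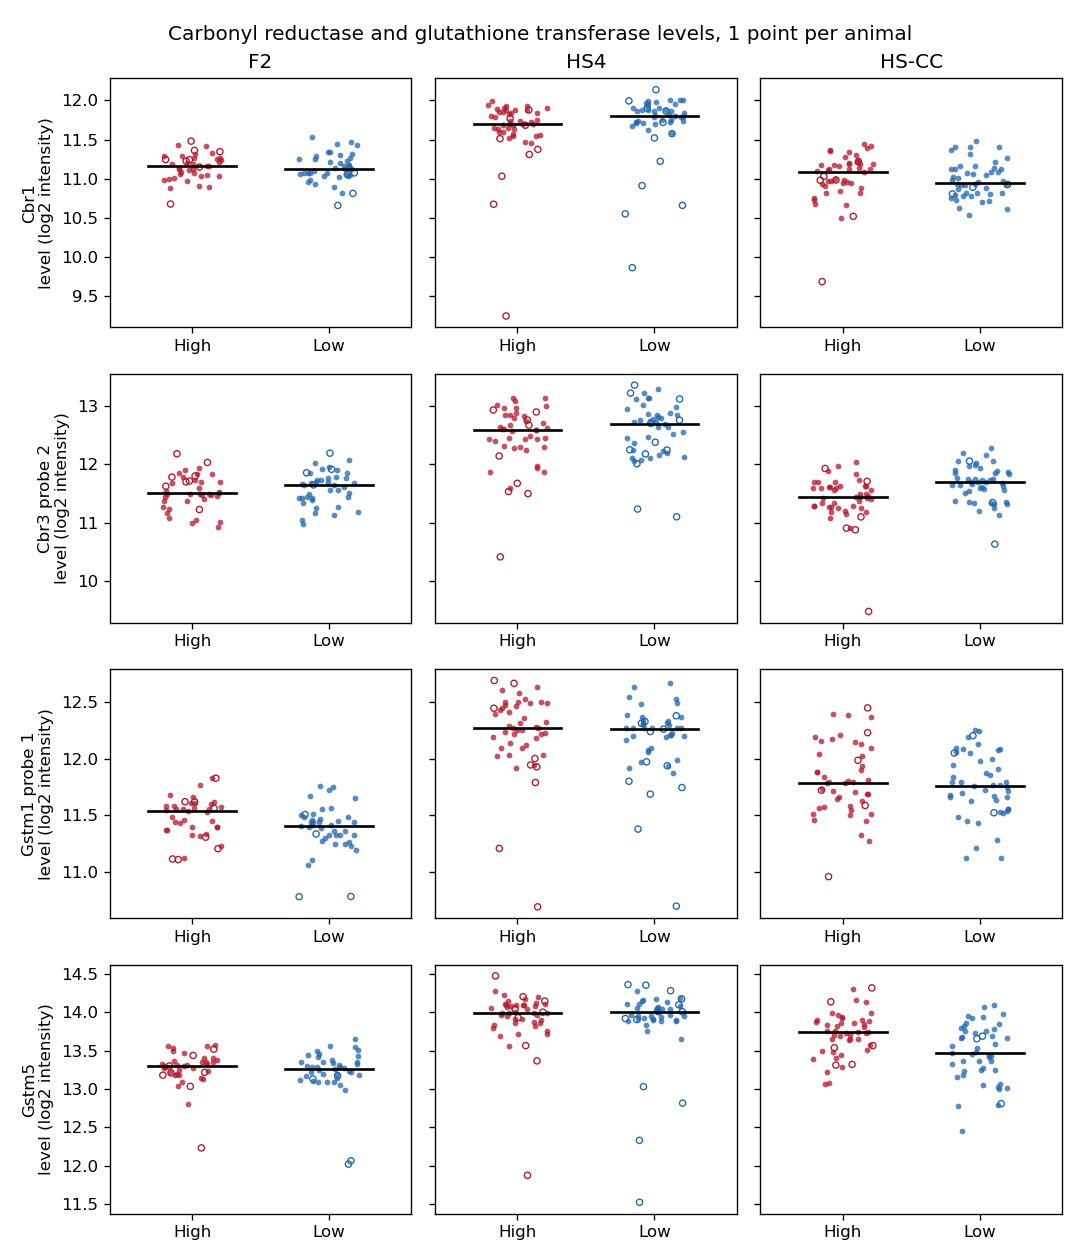
Level of Cbr1, Cbr3 probe 2, Gstm1 probe 1 and Gstm5 (log2 intensity, vertical axis) in each animal of the High and Low lines of F2, HS4 and HS-CC, with black bars at the medians and rings for arrays left out on repeated removal. Selections were normalized separately and are compared only within a panel, and in HS-CC the medians were 11.44 in High and 11.69 in Low for Cbr3 probe 2 and 13.74 in High and 13.47 in Low for Gstm5.

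Among the glutathione transferases, Gstm5 was higher in HS-CC High animals. Gstm5 is a mu-class enzyme of the cytosol. In HS-CC it had a lowest value of 13.07, a median of 13.74 and a highest value of 14.32 in High and 12.45, 13.47 and 14.09 in Low. Most animals of both lines fell in the shared range, and the High median exceeded the Low median. The difference was 0.25 (SE 0.07, 95% interval 0.11 to 0.38), a fold of 1.19, and it was 0.24 (SE 0.07) after repeated removal of arrays. In F2 the Gstm5 medians were 13.30 in High and 13.27 in Low and the difference was 0.05 (SE 0.06). In HS4 the medians were 13.99 in High and 14 in Low and the difference was 0.04 (SE 0.09). With repeated removal the Gstm5 difference was 0.01 (SE 0.04) for F2 and -0.02 (SE 0.03) for HS4, so that the sign in HS4 depended on the arrays kept.

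Gstm1, the mu-class relative that lies 5 genes from Gstm5, had its largest difference in F2. At Gstm1 probe 1, F2 High animals had a lowest value of 11.11, a median of 11.54 and a highest value of 11.83, against 10.78, 11.41 and 11.76 in F2 Low animals. The lines overlapped over nearly their whole range. Gstm1 probe 1 differed by 0.10 (SE 0.04, 95% interval 0.02 to 0.18) in F2, by 0.06 (SE 0.07) in HS4 and by 0.05 (SE 0.06) in HS-CC. Gstm1 probe 2, near background, differed by -0.03 (SE 0.02) in F2, -0.05 (SE 0.02) in HS4 and -0.01 (SE 0.02) in HS-CC. After repeated removal these were 0.08 (SE 0.04), 0.04 (SE 0.04) and 0.06 (SE 0.06) at probe 1 and -0.01 (SE 0.02), -0.02 (SE 0.01) and -0.01 (SE 0.02) at probe 2. The 2 Gstm1 probes thus had opposite signs in every selection.

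Gstp1, the pi-class enzyme and a known marker of oligodendrocytes in brain, had different differences at its 3 probes. In HS-CC, Gstp1 probe 2 had a lowest value of 11.98, a median of 12.58 and a highest value of 13.34 in High and 11.70, 12.50 and 12.79 in Low, and differed by 0.14 (SE 0.05). This difference was 0.07 (SE 0.04) after repeated removal, and Gstp1 probes 1 and 3 differed by 0.04 (SE 0.06) and 0.01 (SE 0.03). In HS4, probe 2 differed by 0.20 (SE 0.17) with all arrays and by -0.00 (SE 0.05) after repeated removal, so that its size there came with arrays that stood apart. In F2 the 3 Gstp1 probes differed by -0.01 (SE 0.03), -0.04 (SE 0.04) and 0.03 (SE 0.04), and after repeated removal by -0.02 (SE 0.03), -0.05 (SE 0.03) and -0.02 (SE 0.03). Gstp2 is a close relative of Gstp1, and whether these probes tell the pair apart was not tested.

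Gsta4, an alpha-class enzyme that takes the lipid peroxidation product 4-hydroxynonenal as its substrate, differed by 0.02 (SE 0.04) in F2, -0.15 (SE 0.09) in HS4 and 0.07 (SE 0.04) in HS-CC. In HS4 it had a lowest value of 9.85, a median of 10.17 and a highest value of 11.51 in High and 9.91, 10.26 and 12.18 in Low. After repeated removal the HS4 difference was -0.03 (SE 0.04), and the highest values, above 11, were gone from both lines. In F2 and HS-CC the Gsta4 differences were 0.04 (SE 0.03) and 0.09 (SE 0.03) after repeated removal. Mgst1, a membrane-bound transferase with peroxidase activity, had differences between -0.09 and 0.07 over its 2 probes and the 3 selections, all with intervals that included 0. At Mgst1 probe 2, F2 animals had a lowest value of 9.38, a median of 9.70 and a highest value of 10.08 in High and 9.35, 9.68 and 10.26 in Low, so that the lines shared nearly their whole range.

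**Figure D2:**
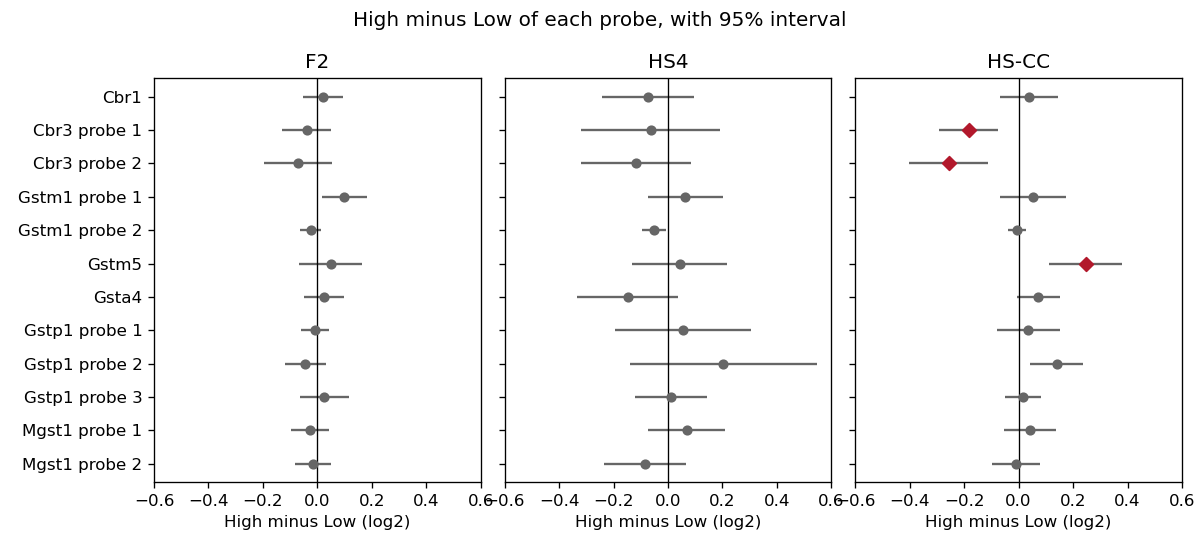
High minus Low difference (log2, horizontal axis) with its 95% interval for the 12 probes in F2, HS4 and HS-CC, with red diamonds where the adjusted p of limma was under 0.1 over all expressed probes. The 3 diamonds are Cbr3 probe 1 at -0.18, Cbr3 probe 2 at -0.26 and Gstm5 at 0.25, all in HS-CC.

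Counted at an adjusted p under 0.1 by limma over all expressed probes, 0 of the 12 probes passed for F2, 0 for HS4 and 3 for HS-CC. The shares of all expressed probes that passed were 0.922% for F2, 0.046% for HS4 and 3.41% for HS-CC (1.19% higher in High and 2.22% lower in High). Because High minus Low results were known when the genes were taken, nothing is read from these counts or from those at an unadjusted p that follow. The intervals of the members are likewise descriptions and not tests. At an unadjusted p under 0.05, 1 of the 12 passed in F2 (Gstm1 probe 1), 1 in HS4 (Gstm1 probe 2) and 4 in HS-CC (the 3 above and Gstp1 probe 2), beside 8.76%, 3.22% and 12.3% of all expressed probes. The median difference of the 12 probes was -0.01 for F2, -0.02 for HS4 and 0.04 for HS-CC, beside -0.00, -0.01 and -0.00 over all expressed probes. The 3 probes that passed in HS-CC also passed without the outlying arrays, removed once (4.54% of all probes passed) or repeatedly (4.29%). In the other selections 0 of the 12 passed without them, beside 1.43% (once) and 2.22% (repeatedly) of all probes in F2 and 0.158% and 0.651% in HS4.

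Other genes of the same pathways were counted from 5 lists drawn up with earlier results known, so their counts and adjusted p are descriptions. Beside them, 0.922%, 0.046% and 3.41% of all expressed probes passed in F2, HS4 and HS-CC. In HS-CC 1.19% passed and were higher in High, and 2.22% passed and were lower. At an unadjusted p under 0.05 by limma the shares were 8.76%, 3.22% and 12.3%. Of the other glutathione transferases, with all arrays Mgst3 was the gene with probes past the threshold, in opposite directions in 2 selections. Both Mgst3 probes rose in F2 High, by 0.28 (SE 0.06, limma adjusted p = 0.00489) and 0.24 (SE 0.06, limma adjusted p = 0.0512), and both fell in HS-CC High, by 0.26 (SE 0.08, limma adjusted p = 0.0661) and 0.28 (SE 0.08, limma adjusted p = 0.0548). Mgst3 is a microsomal transferase related to leukotriene C4 synthase. These were 2 of 22 expressed probes of the family in F2 and 2 of 21 in HS-CC, and 0 of 23 passed in HS4. The probes at an unadjusted p under 0.05 numbered 2 for F2, 1 for HS4 and 5 for HS-CC, where the other 3 were 2 probes of Hpgds (0.08 and 0.06, limma adjusted p of 0.235 and 0.157) and 1 of Gsto1 (-0.10, limma adjusted p = 0.398), named after their values were seen. Both Hpgds probes passed without the outlying arrays, with limma adjusted p of 0.0607 and 0.0678 for removal once and 0.00773 and 0.00845 for repeated removal. The difference between the 2 selections in Mgst3 was not tested.

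Of the carbonyl-reducing enzymes other than the members, mostly aldo-keto reductases, 0 of 17 probes passed in F2, 0 of 19 in HS4 and 2 of 17 in HS-CC, with 1, 1 and 4 at an unadjusted p under 0.05. Akr1e1 was lower in HS-CC High, by -0.24 (SE 0.06, limma adjusted p = 0.00786), and Akr1b10 was higher, by 0.29 (SE 0.09, limma adjusted p = 0.0599). After repeated removal of arrays Akr1b10 had a difference of 0.20 (limma adjusted p = 0.219). Among the Nrf2 list, 0 of 23 probes passed in F2, 0 of 24 in HS4 and 4 of 24 in HS-CC, all of them higher in High, with 2, 0 and 7 at an unadjusted p under 0.05. Those 4 were Me1, which makes NADPH (0.33, SE 0.06, limma adjusted p = 0.00053), Tkt and Taldo1 of the pentose phosphate pathway (0.13 and 0.16), and the quinone reductase Nqo1 (0.08). Their adjusted p by limma was 5.58e-05 for Tkt, 0.0525 for Taldo1 and 0.0548 for Nqo1, of which Taldo1 had 0.105 after repeated removal, and the 2 other Tkt probes differed by 0.01 (limma adjusted p = 0.843) and -0.15 (limma adjusted p = 0.253), the second with an adjusted p of 0.0436 after repeated removal. Nfe2l2, which encodes Nrf2 and is named after its value was seen, differed by 0.00 (SE 0.02) in HS-CC, and the list's median difference there was -0.00.

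In the list of glutathione synthesis and use, 1 of 28 probes passed in HS-CC, that of Glo1 (glyoxalase, which clears methylglyoxal with glutathione), higher by 0.64 (SE 0.09, limma adjusted p = 3.75e-07). None of its 27 probes in F2 or 28 in HS4 passed, and 0 of each had an unadjusted p under 0.05. Gclc and Gclm, the subunits of the enzyme that limits glutathione synthesis and likewise named after their values were seen, differed in HS-CC by 0.03 (SE 0.04) and 0.02 (SE 0.03). Of the haloperidol targets and disposition genes, 0 of 3, 0 of 3 and 0 of 2 expressed probes passed in F2, HS4 and HS-CC, with 0, 0 and 1 at an unadjusted p under 0.05.

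The genes around the members were looked at in the order of the RefSeq table (GRCm38.p6), 5 genes to either side. Of these 64 genes, 29, 32 and 30 were expressed in F2, HS4 and HS-CC. By limma at an adjusted p under 0.1, 0 of 39, 0 of 42 and 0 of 38 of their probes passed, with 0, 1 and 2 at an unadjusted p under 0.05. Of all expressed probes, 0.922%, 0.046% and 3.41% passed at the adjusted threshold and 8.76%, 3.22% and 12.3% at the unadjusted one. The neighbours named here were chosen after their values were seen. Setd4, next to Cbr1, had HS-CC differences of 0.03 (SE 0.03) and 0.13 (SE 0.09) at its 2 probes, and Morc3, 3 genes beyond Cbr3, had -0.07 (SE 0.04). Cldn14, 5 genes from Cbr3, differed by -0.29 (SE 0.11, limma adjusted p = 0.17) with all arrays and by -0.34 (limma adjusted p = 0.0803) after repeated removal. In the Gstm cluster, Gstm6 and Gstm2 lie between Gstm5 and Gstm1 and had HS-CC differences of 0.03 (SE 0.02) for Gstm6 and 0.02 (SE 0.03) and 0.04 (SE 0.02) for the 2 probes of Gstm2. Clcn3, 3 genes from Cbr4, had 2 probes that passed in HS-CC after repeated removal, at 0.15 and 0.16, with limma adjusted p of 0.0926 and 0.0467. Another Clcn3 probe did not pass there (0.04, limma adjusted p = 0.43). After repeated removal 4.29% of all expressed probes passed in HS-CC.

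The second question was whether the genes varied together from animal to animal within a line, which does not use the High minus Low difference. For this, line means were subtracted, outlying arrays were left out, and the probe with the highest mean stood for a gene (probe 2 of Cbr3, Gstp1 and Mgst1 and probe 1 of Gstm1). Of 21 gene pairs, 7 correlated for F2, 13 for HS4 and 4 for HS-CC at an adjusted p under 0.05 (permutation test within lines, 100000 resamples, two-sided, adjusted over 63 tests). Beside these, 17.3%, 50.6% and 16.9% of all pairs of expressed probes had an absolute r at least that of the weakest pair that passed (0.29, 0.26 and 0.26). A first principal component held 16.8% of the variance of F2, 47.5% of HS4 and 11.2% of HS-CC. After repeated removal 7, 10 and 7 pairs passed, beside 11.5%, 22% and 15.5% of all pairs. Covariation on these arrays was in view when the genes were taken. The permutation p of the pairs are therefore descriptions, and nothing is read from these counts.

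Gstm1 with Mgst1, Gstm1 with Gstm5 and Gstm5 with Mgst1 were the pairs that passed in all 3 selections with outlying arrays left out once, and after repeated removal the pairs that passed in all 3 were Gstm1 with Mgst1, Gstm1 with Gstp1 and Cbr3 with Mgst1. Gstm1 and Mgst1 had r = 0.57 in F2 (rho 0.57, n = 80), 0.42 in HS4 (rho 0.38, n = 92) and 0.45 in HS-CC (rho 0.49, n = 95). Their permutation p was 1e-05 in F2 and HS-CC, the smallest that 100000 resamples can give (adjusted 9.00e-05), and 6.00e-05 in HS4 (adjusted 0.000378). Without the 2 animals farthest from the median of Gstm1, r was 0.51, 0.41 and 0.44. Within the High lines r was 0.74, 0.34 and 0.54 and within the Low lines 0.37, 0.47 and 0.35, in the order F2, HS4, HS-CC. After repeated removal it was 0.56, 0.28 and 0.46, and all 3 still passed.

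Gstm1 and Gstm5 had r = 0.48 for F2, 0.29 for HS4 and 0.53 for HS-CC (rho 0.46, 0.17 and 0.50), with adjusted permutation p of 9.00e-05, 0.029 and 9.00e-05. Without the 2 farthest animals r was 0.42, 0.24 and 0.50. Within lines it was 0.49 in F2 High and 0.46 in F2 Low, 0.02 in HS4 High and 0.41 in HS4 Low, while in HS-CC it was 0.52 in High and 0.55 in Low. The HS4 value was 0.05 after repeated removal (adjusted permutation p = 0.732) and did not hold within the HS4 High line, so that the relation held in F2 and HS-CC. Gstm5 and Mgst1 had r = 0.29, 0.34 and 0.40 in F2, HS4 and HS-CC (rho 0.31, 0.16 and 0.42, adjusted permutation p of 0.0282, 0.01 and 0.000515). After repeated removal their r was 0.27, 0.29 and 0.37, with an adjusted permutation p of 0.0557 in F2.

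Gstm1 and Gstp1 had r = 0.38 for F2 (rho 0.38), 0.38 for HS4 (rho 0.51) and 0.24 for HS-CC (rho 0.27), with adjusted permutation p of 0.00311, 0.00283 and 0.0563. Without the 2 farthest animals r was 0.42, 0.35 and 0.20. Within the High lines it was 0.34, 0.46 and 0.34 and within the Low lines 0.43, 0.32 and 0.12. With repeated removal r was 0.35, 0.44 and 0.27, with adjusted permutation p of 0.01, 0.00108 and 0.0312, so that the HS-CC pair was on either side of the threshold by the arrays kept.

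Cbr3 joined Mgst1 in F2 (r = 0.37, rho 0.41, adjusted permutation p = 0.00311) and HS4 (r = 0.44, rho 0.48, adjusted permutation p = 0.000157). In HS-CC the pair had r = 0.19 (adjusted permutation p = 0.132), and 0.37 after repeated removal (adjusted permutation p = 0.00245). Cbr1 and Cbr3 had r = 0.35 in F2 (rho 0.35, adjusted permutation p = 0.00649), 0.00 in HS4 and 0.00 in HS-CC, with within-line values of 0.44 in High and 0.26 in Low for F2. Gsta4 and Gstp1 had the r farthest from 0 in HS4, -0.79, but its rho was -0.27 and its r after repeated removal 0.13, so that it rested on arrays that stood apart. Likewise Cbr1 and Gstp1 had r = 0.59 and rho 0.00 in HS4, and r = -0.33 after repeated removal.

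**Figure D3:**
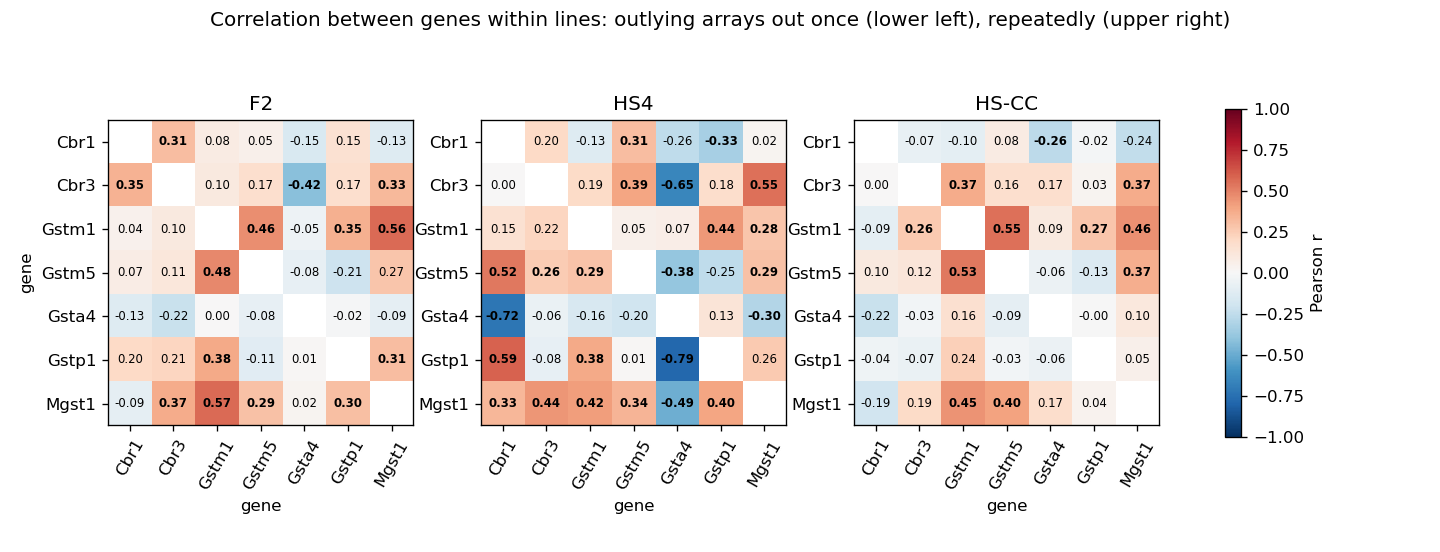
Pearson r between the 7 measured genes across animals within lines in F2, HS4 and HS-CC, with outlying arrays left out once below the diagonal and repeatedly above it, and bold numbers where the adjusted permutation p was under 0.05. Gstm1 with Mgst1 was bold in all 3 selections on both sides of the diagonal, and the HS4 value of Gsta4 with Gstp1 was -0.79 below it and 0.13 above it.

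Probes of 1 gene did not always follow each other. The 2 Cbr3 probes had r = 0.85 for F2, 0.44 for HS4 and 0.75 for HS-CC, and 0.92 in HS4 after repeated removal. The 2 Mgst1 probes had 0.57 in F2 and 0.14 in HS4 and HS-CC, and the 2 Gstm1 probes 0.17, 0.20 and 0.28. Gstp1 probes 2 and 3 had -0.11, -0.53 and -0.05, while probes 1 and 2 had 0.44, 0.78 and 0.55. The High minus Low statements on Cbr3 therefore rest on a pair of probes that varied together, least so in HS4 before repeated removal. Its covariation rests on probe 2 alone, and statements on Gstp1, Gstm1 and Mgst1 rest on the 1 probe named.

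The third question was which cell types' markers each gene moved with. The level of a marker list was the mean of its expressed probes, each standardized over the arrays of a selection. Of 63 gene and list pairs per selection, 23 passed for F2, 31 for HS4 and 18 for HS-CC at an adjusted permutation p under 0.05 over 189 tests. Beside these, 19%, 32.1% and 12.5% of all pairs of an expressed probe and a list had an absolute r at least that of the weakest pair that passed (0.27, 0.26 and 0.28). Genes and lists were both taken with results of these data known, so the permutation p here are descriptions and nothing is read from the counts.

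Cbr3 moved with the spiny projection neuron, the main cell type of the striatum. All 7 genes of the spiny neuron list with a probe were expressed in every selection. Cbr3 and the spiny neuron level had r = 0.79 in F2 (rho 0.78), 0.66 in HS4 (rho 0.70) and 0.51 in HS-CC (rho 0.38), each with a permutation p of 1e-05, the smallest possible (adjusted 0.000111). Within the High lines r was 0.81, 0.72 and 0.49 and within the Low lines 0.77, 0.61 and 0.53. Without the 2 farthest animals it was 0.77, 0.62 and 0.41, and after repeated removal 0.83, 0.91 and 0.36. With the spiny neuron level alone, 28.8%, 57.7% and 19.4% of all expressed probes had an absolute r of at least 0.27, 0.26 and 0.28. These were the weakest values that passed for any gene and list, and no share was taken at the r of Cbr3 itself. After repeated removal in HS-CC, Cbr1 had 0.44 and Gsta4 -0.37 with the spiny neuron level, beside 0.36 for Cbr3.

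Cbr3 ran against the cortical neuron markers, with r = -0.60, -0.68 and -0.41 in F2, HS4 and HS-CC, and with the microglia markers it had 0.56, 0.50 and 0.29, the last with an adjusted permutation p of 0.0824 after repeated removal. With the cortical neuron level Cbr3 had -0.61, -0.80 and -0.50 after repeated removal. In HS-CC this was farther from 0 than its 0.36 with the spiny neuron level. Of all expressed probes, 43.6%, 58.4% and 19.4% reached the weakest r that passed with the microglia level. With the cortical neuron level these shares were 21.1%, 34.7% and 18.6%. The genes most alike in their variation within lines, by mean r over the 3 selections among 13994 probes expressed in all of them, were for Cbr3 Rgs9 (0.75), Actn2 (0.74) and Scube3 (0.74). After repeated removal the 3 were Ppp1ca (0.76), Scube3 (0.74) and Smpd3 (0.74). Rgs9, a striatal regulator of G protein signalling, is itself on the spiny neuron list. With the levels of spiny and cortical neuron markers as terms in the fit, the HS-CC High minus Low of Cbr3 was -0.18 (SE 0.04) at probe 1 and -0.27 (SE 0.06) at probe 2, as large as without them. The F2 difference at probe 2 was -0.00 (SE 0.04) with these terms, and that of HS4 was -0.10 (SE 0.07). After repeated removal the HS4 differences with these terms were -0.01 (SE 0.04) at probe 2 and -0.08 (SE 0.04) at probe 1. The part of the neuron marker levels in the Cbr3 differences was not tested. The spiny neuron markers, given as the mean log2 level over background, had a median of 2.75 in High animals of HS-CC (0.151 to 3.44) and of 2.75 in Low animals of HS-CC (0.697 to 3.65).

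Gsta4 ran against the spiny neuron level, with r = -0.48 for F2, -0.72 for HS4 and -0.43 for HS-CC (rho -0.46, -0.77 and -0.44, each with an adjusted permutation p of 0.000111). It was -0.59, -0.72 and -0.37 after repeated removal, so that the sign held in every selection. With the astrocyte level Gsta4 had 0.05, -0.14 and 0.43 after repeated removal, and the HS-CC value passed (adjusted permutation p = 0.00049). With the cortical neuron level it then had 0.38, 0.56 and 0.05, and the F2 and HS4 values passed (adjusted permutation p of 0.00504 and 0.000105). Cbr3 and Gsta4 themselves had r = -0.22, -0.06 and -0.03, and -0.42, -0.65 and 0.17 after repeated removal. Cbr1 had 0.35, 0.48 and 0.42 with the spiny neuron level, and 0.16 in HS4 after repeated removal (adjusted permutation p = 0.329).

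**Figure D4:**
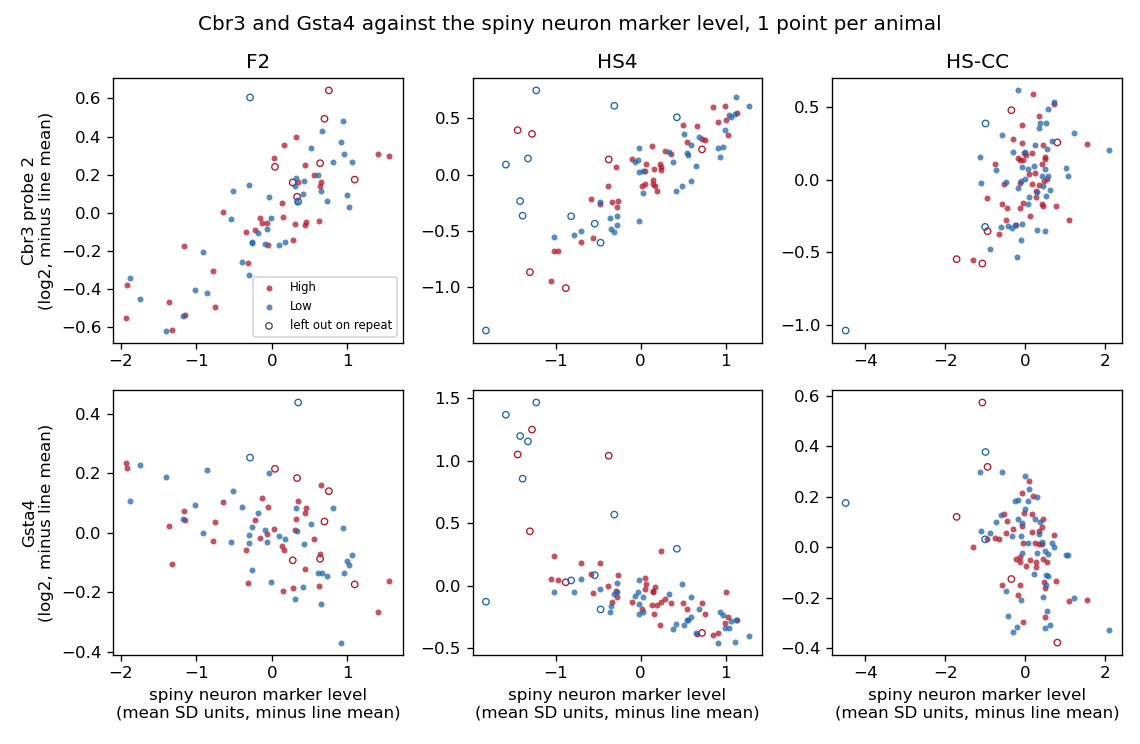
Cbr3 probe 2 and Gsta4 (log2, line mean subtracted, vertical axes) against the spiny neuron marker level (mean of standardized values, line mean subtracted, horizontal axes), 1 point per animal, High in red and Low in blue, without outlying arrays and with rings for those left out on repeat. Pearson r was 0.79, 0.66 and 0.51 for Cbr3 and -0.48, -0.72 and -0.43 for Gsta4 in F2, HS4 and HS-CC.

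Gstm1 and Mgst1 ran against the cortical neuron markers in all 3 selections, and no other list passed for both genes in every selection. With the cortical neuron level Gstm1 had r = -0.53, -0.48 and -0.49 and Mgst1 -0.64, -0.62 and -0.50 in F2, HS4 and HS-CC, all with an adjusted permutation p of at most 0.000164. With the astrocyte level Gstm1 had 0.34, 0.39 and 0.32 and Mgst1 0.17, 0.42 and 0.35, of which the F2 value of Mgst1 did not pass (adjusted permutation p = 0.222). Of all expressed probes, 19.4%, 48.2% and 22% reached the weakest r that passed with the astrocyte level. Gstm1 also had 0.29, 0.32 and 0.36 with the oligodendrocyte level, and Mgst1 0.23, 0.36 and 0.22, of which the HS4 value passed. With the microglia level Gstm1 had 0.10, -0.06 and 0.38 and Mgst1 0.23, -0.10 and 0.35, and those of HS-CC passed. After repeated removal the HS4 value of Mgst1 with microglia was 0.31 (adjusted permutation p = 0.0223). With oligodendrocytes Mgst1 then had 0.30 in F2 and 0.26 in HS4 (adjusted permutation p of 0.0336 and 0.0572). Which of these Mgst1 values passed thus depended on the arrays kept. With the choroid plexus level Gstm1 had 0.40, 0.33 and 0.13 and Mgst1 0.28, 0.39 and 0.13, and with the leptomeninges level Gstm1 had 0.33, 0.40 and 0.14 and Mgst1 0.26, 0.16 and 0.21. Of these, the F2 and HS4 values passed, except that of Mgst1 with leptomeninges in HS4, and the HS-CC values did not. Mgst1 and the spiny neuron level had 0.29, 0.65 and 0.01, the last with an adjusted permutation p of 0.973. After repeated removal the HS4 values of Gstm1 were 0.27 with astrocytes (adjusted permutation p = 0.0549) and 0.21 with oligodendrocytes (adjusted permutation p = 0.159), beside 0.34 with choroid plexus and 0.34 with leptomeninges (adjusted permutation p = 0.0134 each). The genes most like Gstm1 were Plekhb1 (mean r 0.56), the astrocyte lipoprotein gene Apoe (0.55) and the epoxygenase Cyp2j9 (0.54), and those most like Mgst1 were Hmgn1 (0.57), Fkbp9 (0.55) and Cyp2j9 (0.55). With repeated removal the most alike were Cyp2j9 (0.54), 2310022B05Rik (0.53) and Dnaic1 (0.52) for Gstm1, and Zfp521 (0.56), Isl1 (0.56) and H4c8 (0.55) for Mgst1.

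Gstm5 had r = 0.48 with the astrocyte level for F2, 0.29 for HS4 and 0.20 for HS-CC, the last with an adjusted permutation p of 0.111. The genes most like Gstm5 were Pde6d (0.63) and the complex I subunit genes Ndufb9 (0.60) and Ndufs4 (0.56), and after repeated removal Ndufs4 (0.59), S100b (0.59) and Sem1 (0.59). In HS-CC, where Gstm5 was higher in High, the astrocyte markers had a median of 1.5 in High (range -0.549 to 1.75) and 1.55 in Low (range 1.36 to 1.81), with all 9 astrocyte genes that have a probe expressed. Their part in the Gstm5 difference was not tested. Gstp1 had r = 0.21, 0.37 and 0.37 with the oligodendrocyte level in F2, HS4 and HS-CC, and the F2 value did not pass (adjusted permutation p = 0.111). The genes most like Gstp1 were Rtl8c (0.80), Pde6d (0.73) and Naca (0.70), those most like Cbr1 Pebp1 (0.63), Nsg2 (0.61) and Mprip (0.60), and those most like Gsta4 Rsph9 (0.68), Psmb10 (0.67) and Pafah1b3 (0.64). With repeated removal the most alike were Rtl8c (0.73), Arpc1a (0.66) and Pde6d (0.65) for Gstp1, Psmd1 (0.57), Mprip (0.52) and Rtcb (0.52) for Cbr1, and Psmb10 (0.61), Selenoh (0.60) and Ranbp1 (0.59) for Gsta4.

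**Figure D5:**
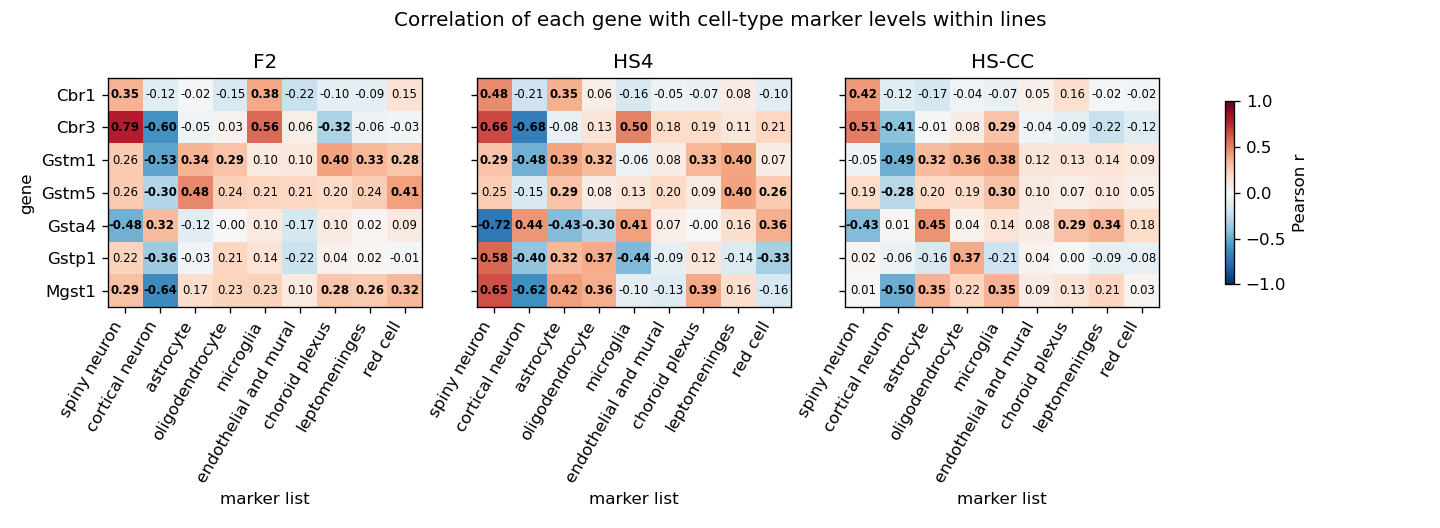
Pearson r of the 7 measured genes (rows) with the levels of 9 marker lists (columns) across animals within lines, outlying arrays left out, with bold numbers where the adjusted permutation p was under 0.05. Cbr3 with the spiny neuron level (0.79, 0.66 and 0.51) and Mgst1 with the cortical neuron level (-0.64, -0.62 and -0.50) were among the largest in F2, HS4 and HS-CC.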

How the data were processed

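Striatal RNA of 275 mice was hybridised to Illumina mouse whole-genome bead arrays. The deposited values are log2 intensities that the authors had normalized within each selection with lumi, and the transformation used (plain log2 or variance-stabilizing) was not given in the sources used here. Every array was taken as deposited, and probe names came from the platform annotation, in which 23978 of 25697 probes had 1 gene symbol and 1719 had none. Array number, and not a read depth, limits the precision.

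High minus Low was fitted within each selection by limma 3.58.1 (R 4.3.3) over all expressed probes, with Benjamini-Hochberg adjustment and a threshold of 0.1. Covariation was tested in Python 3.11.15 with numpy 2.4.6, pandas 2.3.3 and scipy 1.17.1, by permutation within lines. Figures were drawn with matplotlib 3.10.9. Both steps were tested on simulated data. The members and all lists were chosen with earlier results of these data known, so that members' differences carry no p-value. For the same reason the permutation p of their covariation are given as descriptions. Named were every member probe, related genes and neighbours with a probe past the threshold, and the 3 genes most alike to each member. Names outside this rule are marked in the text. Alternatives were the variable probes, outlying arrays left out, a threshold of 0.05, the labelled code and sex of HS4, each line alone, the second probe of a gene and removal of the first component.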

Additional observations from a re-analysis of the deposited data

How the results depend on the processing

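All 276 alternative values of single member probes moved by less than the spread between animals, 16 of them with a change of sign, and none of those 16 belonged to a probe past the threshold. That spread, 1 SD of the animals, is wide beside the SE of a difference, so nothing is read from this count. Gstp1 probe 2 in HS4 went from 0.20 (SE 0.17) to -0.00 after repeated removal and was still counted. Its SD was 0.75 in High and 0.95 in Low. The number of member probes past the threshold in each selection, and the number of gene and marker list pairs, stayed within 1.5 times under every alternative run. That margin covers the loss of Cbr3 probe 1 in HS-CC at a threshold of 0.05. There 331 probes passed, and by the p of limma Cbr3 probe 1 had rank 335, Cbr3 probe 2 rank 275 and Gstm5 rank 256. Over all expressed probes, the count in F2 was 141, and it was 219 without outlying arrays, 339 after their repeated removal and 72 at a threshold of 0.05. In HS4 it was 7, and it was 3 among variable probes, 24 without outlying arrays and 99 after repeated removal. In HS-CC it was 516, and it was 192 among variable probes and 331 at a threshold of 0.05. Fewer probes were tested among the variable ones, and for the other settings the cause was not tested. Without outlying arrays, the HS-CC related probes past the threshold were 14 in place of 9 and the neighbours 1 in place of 0, and neighbours were 3 after repeated removal. Gene pairs in F2 were 7, and they were 14 with all arrays, 3 in the High line alone, 3 in the Low line alone and 3 with the first component and the arrays removed repeatedly. In HS4 they were 13, and 6 in the High line alone and 3 with the component and arrays removed. In HS-CC they were 4, and 10 with all arrays, 7 with the second probe and 7 after repeated removal. Repeated removal and the neuron marker terms were chosen after seeing the data. No paired analysis was possible because High and Low animals share no numbers in the labels. Probes near background, Gstm1 probe 2 and Mgst1 probe 1, limit what can be read from those probes.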
